A study of Mus musculus with 6 samples.

Results

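The genes of DNA replication and S phase were followed in laser-cut layers of chondrocytes from the spheno-occipital synchondrosis of the mouse, a cartilage plate through which the cranial base lengthens. The set held 49 genes, chosen by symbol from the 24346 symbols of the deposited tables, and all 49 were listed in every library. RNA-seq was done on 6 libraries, 3 with the title code FP and 3 with the code RR, and each code carried the library numbers 11, 14 and 16. The series compares flat with round chondrocytes, but no label spells out the codes, so they are kept here. All 6 libraries came from mice with Gli1CreERT2, a tamoxifen-dependent Cre recombinase under control of the Gli1 gene, and a floxed Tomato reporter, treated with tamoxifen at postnatal day 3. FP and RR thus shared genotype, tissue and treatment, and the labels part them by title code alone. The sources used here do not give strain, age at collection or the number of animals, and no label says that Tomato was used to choose cells. Since no label ties the libraries of a group to different animals, each p-value speaks only of the spread among these samples, and that spread may be technical.

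A cell copies its DNA in ordered steps. In G1 the origin recognition complex, Cdc6 and Cdt1 load the MCM2-7 helicase on origins, and in S phase Mcm10, Cdc45 and the GINS complex turn it into a moving fork, where polymerases work with the sliding clamp Pcna, the Rfc clamp loader and the Rpa single-strand binding complex. Many of these genes are transcribed in waves by E2F factors once cyclin-dependent kinases release them from the retinoblastoma proteins. In growth cartilage, flat columnar chondrocytes are known as the main dividing cells, and round resting chondrocytes as cells that divide slowly.

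The letters of the promoters show what part of the set carries the textbook E2F site. RefSeq promoter sequences (GRCm38.p6) were matched by symbol for 40 of the 49 genes, and the 250 bases before each gene start were searched on both strands for the E2F motifs TTTCCCGC, TTTCGCGC, TTTGCCGC and TTTGGCGC and for CCAAT. An E2F motif stood in 9 of the 40 (22.5%), against 3.54% of the 11110 tested genes with a promoter sequence and 2.16% of all 27025 in the table. A CCAAT box stood in 24 of the 40 (60%), against 39.7% of those tested genes, and 8 promoters held both. Among the MCM2-7 subunits with a sequence, 3 of 5 had an E2F motif and 5 of 5 a CCAAT box. The windows below, 60 bases each, are shown as examples of the E2F match in a helicase subunit, a polymerase, a licensing factor and a chromatin factor. They are written 5′ to 3′ on the gene's strand with the E2F motifs in capitals.
Mcm6 promoter, chr1:128359719-128359778, minus strand: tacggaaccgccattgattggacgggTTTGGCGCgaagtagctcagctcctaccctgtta
Mcm5 promoter, chr8:75109334-75109393, plus strand: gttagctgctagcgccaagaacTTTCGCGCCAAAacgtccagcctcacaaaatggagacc
Pola1 promoter, chrX:93632260-93632319, minus strand: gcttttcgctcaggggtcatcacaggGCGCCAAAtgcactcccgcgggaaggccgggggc
Cdc6 promoter, chr11:98907987-98908046, plus strand: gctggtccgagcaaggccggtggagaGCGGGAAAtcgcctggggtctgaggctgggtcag
Uhrf1 promoter, chr17:56304102-56304161, plus strand: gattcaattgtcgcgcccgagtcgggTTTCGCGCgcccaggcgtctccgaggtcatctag
In Mcm6 the motif shown starts 47 bases before the gene start and is 1 of 3 in the 250 bases, and in Mcm5 a pair of motifs on opposite strands overlap. The Cdc6 and Uhrf1 windows lie inside the GENCODE M21 gene, between its exons, and the other windows lie outside the gene. The matches are descriptions of letters, not of bound sites.

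The libraries were first compared as a whole. The chondrocyte label was checked with its markers: Col2a1, the main collagen of cartilage, stood at 38700 to 81870 FPKM in all 6 libraries, and the rest of the list is given with the other markers at the end. FPKM count fragments per transcript length and library size, so levels can be set side by side between genes. A single fragment amounted to 0.128 to 0.296 FPKM for a transcript of 2000 bp, which makes the deepest library, FP 11, 2.31 times as deep as the shallowest, RR 14, unless the libraries were rescaled. The replication genes had a median of 60.3, 18.3 and 43.7 fragments in FP 11, 14 and 16 and of 29.4, 13.5 and 26.9 in RR 11, 14 and 16. RR 14 stood apart for these genes: it was the lowest library for 24 of the 49 (48.98%), against 21.4% of the 14789 tested genes, and 22 of the 49 had under 10 fragments in it. FP 11, the deepest, was the highest library for 18 of the 49 (36.7%), against 21.8% of tested genes. A listed 0 may be an estimate that failed rather than an absent RNA, and 5 members had one: Gmnn, Cdc45 and Rpa3 were listed at 0 in RR 14, Rfc4 in FP 14 and RR 14, and Gins1 in RR 14 and RR 16.

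As a set, the replication genes stood slightly higher in FP, and no single gene passed the test. Their summed level was 368, 292 and 344 FPKM in FP 11, 14 and 16 and 304, 245.5 and 295 FPKM in RR 11, 14 and 16. The sum was higher in FP within each library number, but FP 14 lay below RR 11 and RR 16, so the groups overlapped. A higher FP sum within each number was not particular to this set. All tested genes summed to 677500, 1123000 and 943500 FPKM in FP and 543000, 756100 and 883400 FPKM in RR. The level of the median member was 6.16, 4.465 and 5.78 FPKM in the FP libraries and 5.28, 2.68 and 4.47 FPKM in the RR libraries. That of the median tested gene was 4.49, 4.29 and 4.22 FPKM in FP and 4.28, 4.42 and 4.35 FPKM in RR, higher in FP for number 11 and lower for 14 and 16. In bulk samples, fewer cells in S phase and less of each RNA per cell cannot be told apart.

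Differences were tested with limma on log2(FPKM + 1), FP minus RR, over the 14789 genes whose mean reached 1 FPKM. Of the 49 members 47 were tested; Orc1 and Gins1 fell under the minimum with means of 0.777 and 0.883 FPKM, and Cdc6 lay just inside it at 1.06 FPKM. At an adjusted p under 0.05, 0 of the 47 passed, against 0.967% of all tested genes (143, of which 82 were higher in FP). The smallest adjusted p of a member was 0.239, for Chaf1b. At an unadjusted p under 0.05, limma put 4 members higher in FP (Chaf1b, Mcm10, Lig1 and Uhrf1) and 0 lower, against 5.77% of all tested genes higher and 4.55% lower. The median difference over the 47 was 0.33 on the log2 scale, from -0.52 for Tyms to 1.06 for Chaf1b, while the median over all tested genes was 0.017. The estimate was higher in FP for 37 members and lower for 10, against 7634 higher and 7155 lower among the 14789 tested genes. Without RR 14 the members' median was 0.080, with 33 estimates higher and 15 lower among 48 tested. Without both libraries numbered 14 it was 0.26, with 36 higher and 12 lower. With the minimum raised to a mean of 5 FPKM, the median was 0.33 over 23 members and 0.14 over all 6914 tested genes. In that fit 3 of the 23 members had every FP library above every RR library, against 13.57% of all tested genes.

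**Figure D1:**
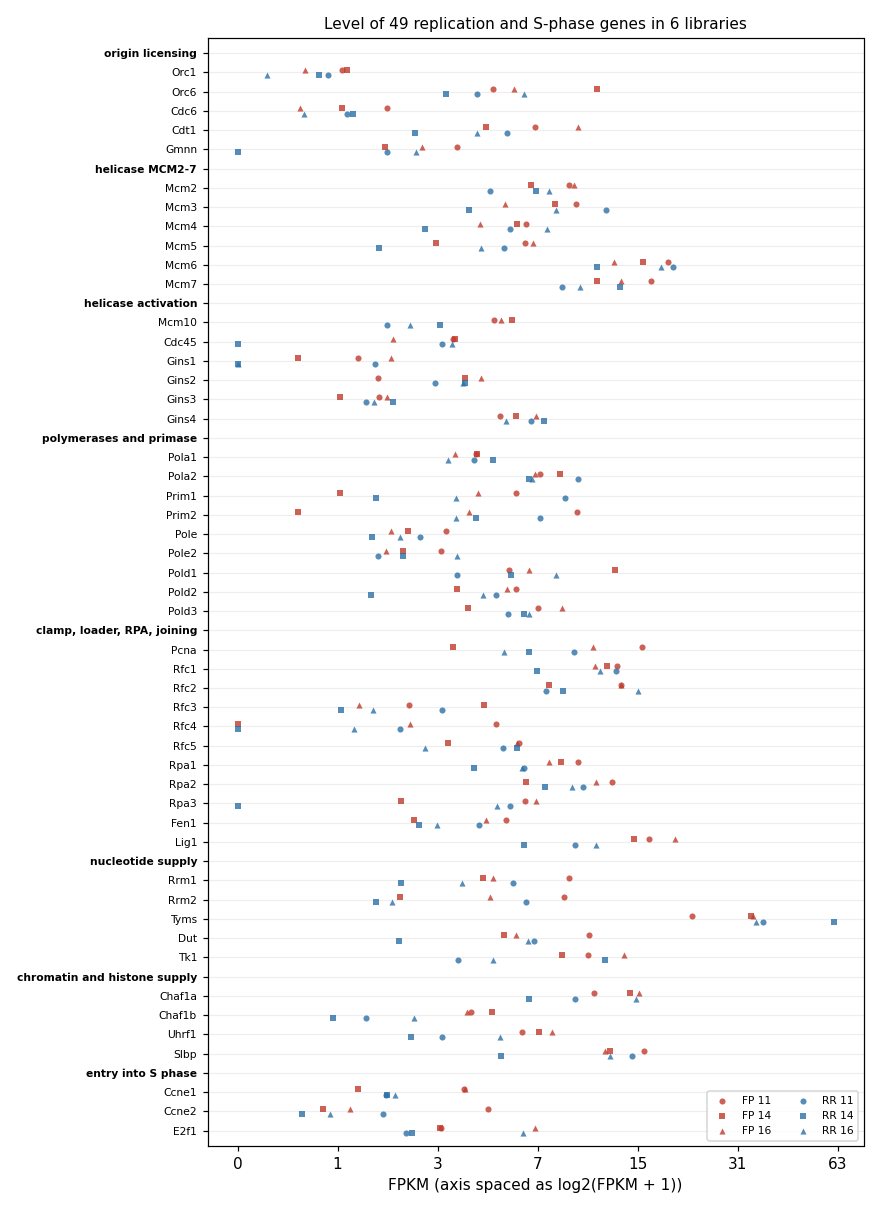
Level of the 49 genes in each library, in FPKM on an axis spaced as log2(FPKM + 1), with FP libraries in red and RR libraries in blue and 1 marker shape for each library number. Tyms is the highest gene in every library, though in FP 11 its 22.3 FPKM lies near the 18.7 FPKM of Mcm6. The blue squares of RR 14 form the left edge for 24 genes.

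The order of the values was also read without a test. Every FP library exceeded every RR library for 5 of the 47 tested members (Mcm10, Rpa1, Lig1, Chaf1b and Uhrf1; 10.6%), against 8.74% of all tested genes, a share near the background. Every FP library was below every RR library for 1 member, Tyms (2.13%), against 7.28% of all tested genes. Within library numbers, FP was higher in each of 11, 14 and 16 for 15 members (31.9%), against 21.0% of all tested genes. FP was lower in each number for 1 member, again Tyms (2.13%), against 17.1%. With the library number as a replicate block, 0 members passed, against 1.83% of all tested genes (271), and the smallest adjusted p of a member was 0.102, for Lig1. Of the spread of a typical member's log2 values over the 6 libraries, a median of 48.7% lay between library numbers and 13.6% between FP and RR. Over all tested genes these medians were 47.1% and 15.7%. There are more library numbers than groups, so numbers take a larger share even of unrelated values, and the shares do not rank the effects. The 95% interval of a difference reached a median of 0.796 to either side on the log2 scale. For 19 of the 47 its upper bound was under 1, that is, under a doubling of FPKM + 1 in FP.

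**Figure D2:**
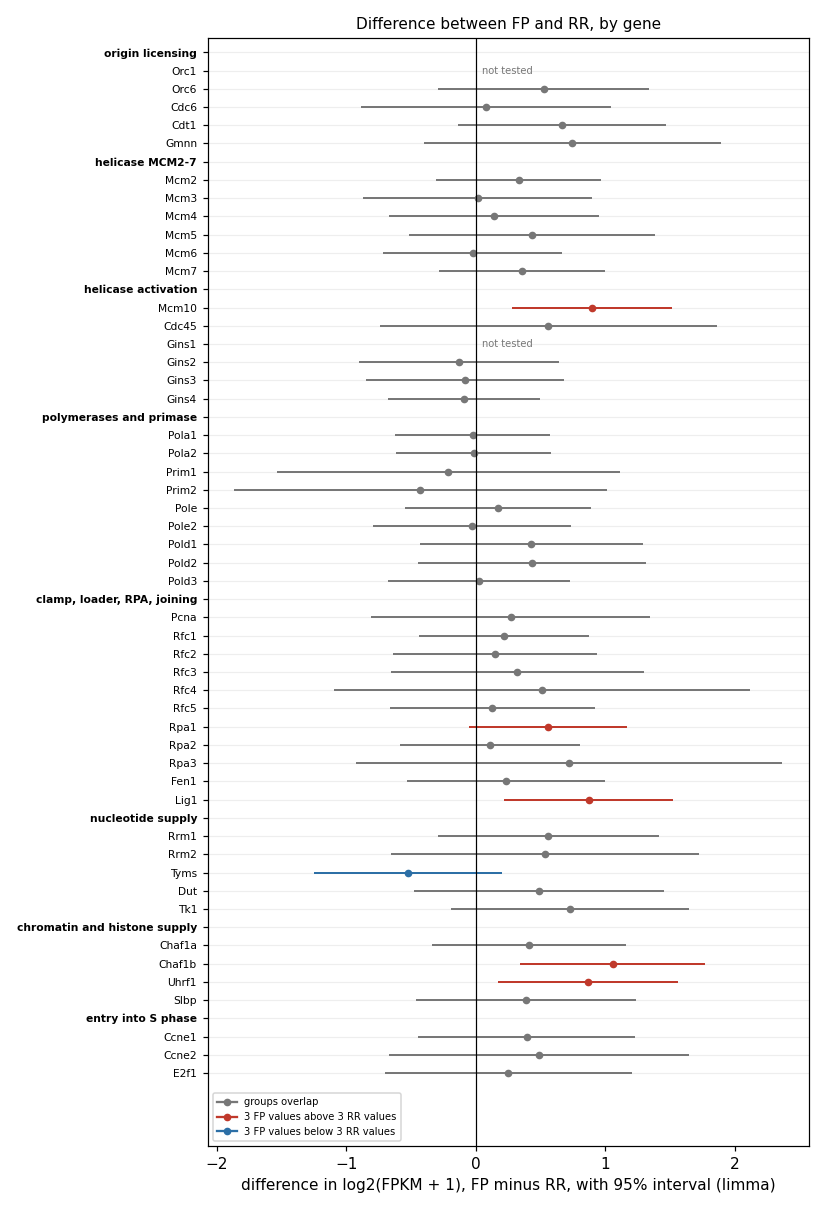
Difference in log2(FPKM + 1), FP minus RR, with the 95% interval from limma over 3 FP and 3 RR libraries, for the 47 tested genes in order of their role. The 5 genes in red have all FP values above all RR values, Tyms in blue has them below, and Orc1 and Gins1 were not tested.

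Origin licensing prepares origins in G1. Summed over Orc1, Orc6, Cdc6, Cdt1 and Gmnn, its level was 18.2, 19.7 and 19.1 FPKM in FP 11, 14 and 16 and 13.5, 7.63 and 13.8 FPKM in RR 11, 14 and 16. The sum was higher in every FP library than in any RR library, although 0 of the 4 tested genes passed limma. Cdt1, the loader of the helicase, had 6.84, 4.605 and 9.60 FPKM in FP and 5.465, 2.41 and 4.27 FPKM in RR. FP was higher within each number, and the groups overlapped because FP 14 lay below RR 11. Its difference was 0.67 ± 0.35 (SE, n = 3 against 3; 95% interval -0.13 to 1.46; limma adjusted p = 0.602).

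Gmnn, geminin, holds Cdt1 back after S phase has begun, so its protein and that of Cdt1 mark different phases. Its level was 3.57, 1.77 and 2.59 FPKM in FP and 1.81, 0 and 2.44 FPKM in RR. Within each number FP was the higher, with FP 14 below RR 11 and RR 16 and RR 14 listed at 0. The estimated difference of 0.75 ± 0.50 was 0.20 without RR 14. Cdc6, the licensing ATPase, was among the lowest members at 1.81, 1.06 and 0.542 FPKM in FP and 1.13, 1.23 and 0.582 FPKM in RR. Its groups overlapped fully, with a difference of 0.08 ± 0.42. Orc6, a subunit of the origin recognition complex, ranged from 3.23 FPKM in RR 14 to 11.1 FPKM in FP 14. Orc1, the subunit that comes and goes with the cell cycle, ranged from 0.224 FPKM in RR 16 to 1.14 FPKM in FP 14 and was the lowest member of all by mean level.

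The MCM2-7 ring is the helicase that opens the double strand, and its 6 subunits work in equal numbers. Its summed level was 66.3, 50.3 and 51.6 FPKM in FP and 55.5, 39.4 and 55.3 FPKM in RR. FP was higher for numbers 11 and 14 and lower for 16, and the groups overlapped. Mcm6 was the highest subunit, rank 2 of the 49 by mean level, at 18.7, 15.6 and 12.5 FPKM in FP and 19.5, 11.1 and 17.9 FPKM in RR. The group means of 15.6 ± 3.08 and 16.1 ± 4.46 FPKM (SD, n = 3) were closer than the libraries of a group, and the 95% interval of the log2 difference ran from -0.71 to 0.66. Mcm7 had 16.5, 11.1 and 13.3 FPKM in FP and 8.47, 13.1 and 9.76 FPKM in RR. It was higher in FP for 11 and 16 and lower for 14, with a difference of 0.36 ± 0.28. Its exons overlap those of Cops6 and Ap4m1 on the other strand and hold Mir25 and Mir93, and the sources used here do not say whether counting used strand.

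Mcm2 stood at 8.95, 6.65 and 9.31 FPKM in FP and 4.76, 6.90 and 7.65 FPKM in RR, with FP 14 below RR 14. Its difference was 0.33 ± 0.28 (limma adjusted p = 0.775), the middle value of the 47. Mcm3, Mcm4 and Mcm5 ranged from 1.66 FPKM (Mcm5 in RR 14) to 11.9 FPKM (Mcm3 in RR 11). None of the 6 subunits had separate groups, and the median difference over the 6 was 0.23.

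Helicase activation turns the loaded ring into a working fork. Mcm10, which is needed to start unwinding, stood at 4.90, 5.70 and 5.19 FPKM in FP and 1.81, 3.08 and 2.295 FPKM in RR. The groups did not overlap, with FP higher, and the FP values were close to one another. The mean was 5.27 ± 0.41 FPKM in FP and 2.395 ± 0.640 FPKM in RR (SD, n = 3), a ratio of 2.198. The log2 difference was 0.90 ± 0.27 (SE; 95% interval 0.29 to 1.51; unadjusted p = 0.00915), and the limma adjusted p over all tested genes was 0.249. Mcm10 lies at chr2:4989714-5012791 on the minus strand (mm10, GENCODE M21) and had 19.4 or more fragments in each library. Its promoter window held 2 CCAAT boxes and no E2F motif.

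The partners of Mcm10 in the active helicase did not share its pattern of separate groups. Cdc45 had 3.45, 3.51 and 1.93 FPKM in FP and 3.14, 0 and 3.42 FPKM in RR. FP 16 was the lowest of the listed values above 0, and the estimate of 0.56 ± 0.57 became -0.14 without RR 14. The GINS subunits Gins2, Gins3 and Gins4 had estimates of -0.13, -0.08 and -0.09. Gins4, the highest of them, stood at 5.16, 5.91 and 6.92 FPKM in FP and 6.64, 7.35 and 5.42 FPKM in RR, with overlapping groups and a 95% interval of -0.67 to 0.49. Gins1 had listed values of 1.302, 0.517 and 1.89 FPKM in FP and of 1.585, 0 and 0 FPKM in RR, so no fold is given.

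The replicative polymerases and primase had estimates on both sides of 0. Over these 9 genes the median difference was -0.02 on the log2 scale, with 4 estimates higher in FP and 5 lower, and their summed level was 51.5, 38.7 and 42.8 FPKM in FP and 47.8, 34.4 and 41.9 FPKM in RR. The sum was higher in FP within each number by less than the numbers differed from one another. Pold1, the catalytic subunit of the lagging-strand polymerase delta, had 5.58, 12.7 and 6.55 FPKM in FP and 3.59, 5.63 and 8.11 FPKM in RR. FP 14 stood above all others, and FP was lower than RR for 16 (0.43 ± 0.37). Pold2, its accessory subunit, had 5.89, 3.58 and 5.47 FPKM in FP and 4.98, 1.52 and 4.47 FPKM in RR. Each number had FP above RR, yet FP 14 lay below RR 11 and RR 16 (0.44 ± 0.38).

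Pola1, the catalytic subunit of the primer-making polymerase alpha, was among the steadiest members. It had 4.21, 4.27 and 3.52 FPKM in FP and 4.16, 4.875 and 3.30 FPKM in RR, a difference of -0.02 with a 95% interval of -0.62 to 0.57. Prim1 and Prim2, the primase subunits, were among the least steady. Prim2 had 9.49, 0.516 and 3.97 FPKM in FP and 7.115, 4.21 and 3.55 FPKM in RR, with FP 14 far below the other libraries at about 2.02 fragments. Pole and Pole2, of the leading-strand polymerase epsilon, stayed between 1.54 and 3.58 FPKM in all libraries. Pola2 and Pold3 stayed between 3.93 and 9.58 FPKM.

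**Figure D3:**
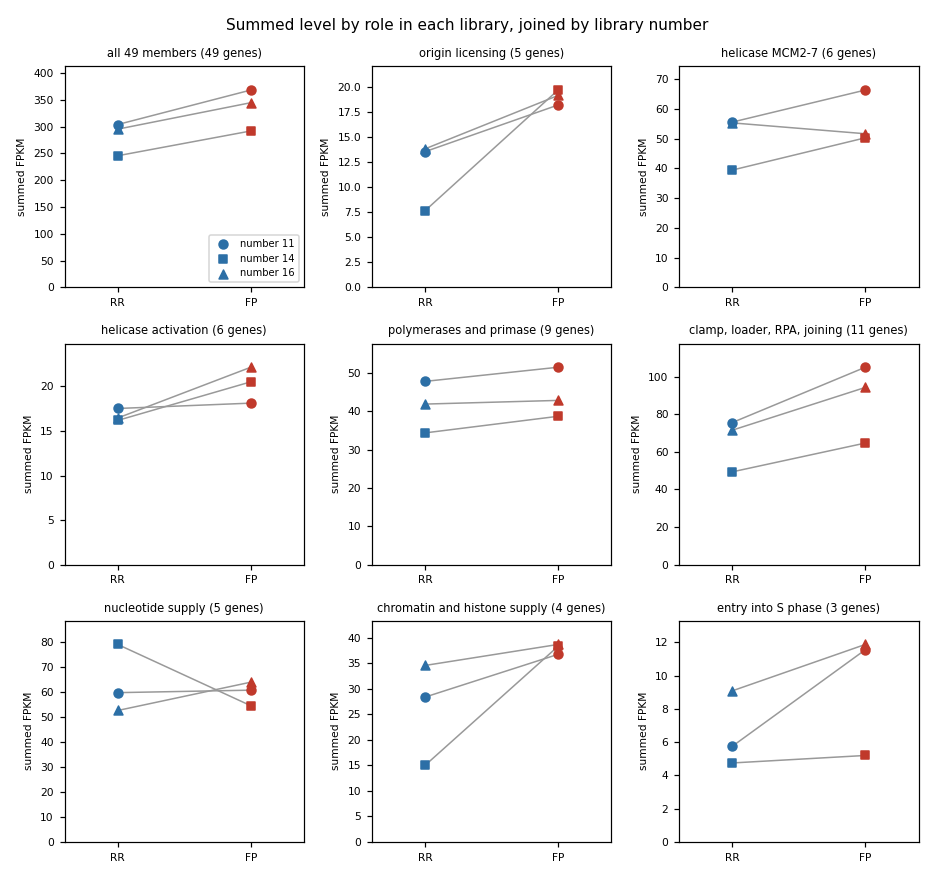
Summed FPKM of all 49 genes and of each role in RR (blue) and FP (red) libraries, with lines joining libraries of the same number, each axis starting at 0. Origin licensing, helicase activation and the chromatin group have every FP sum above every RR sum, while nucleotide supply crosses because Tyms in RR 14 alone was 61.3 FPKM. For helicase activation the gap is narrow, from 17.5 FPKM in RR 11 to 18.1 FPKM in FP 11, and 3 of its 5 tested genes had estimates lower in FP.

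The clamp, its loader, the single-strand binding complex and the enzymes that join Okazaki fragments had 11 of 11 estimates higher in FP, with a median of 0.27 and 0 past the threshold. Among all 14789 tested genes 7634 estimates were higher in FP. Lig1, the ligase that seals the fragments, had rank 3 of the 49 by mean level, at 16.3, 14.6 and 19.7 FPKM in FP and 9.39, 6.29 and 10.99 FPKM in RR. Each FP library was above each RR library. Its mean was 16.9 ± 2.605 FPKM in FP and 8.89 ± 2.39 FPKM in RR (SD, n = 3), a ratio of 1.90. The log2 difference was 0.87 ± 0.28 (SE; 95% interval 0.23 to 1.52), with a limma adjusted p of 0.295. Lig1 lies at chr7:13277283-13311433 on the plus strand, and its exons overlap those of Zswim9 on the other strand. It had 33.6 or more fragments in every library.

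Fen1, the nuclease that trims each fragment before ligation, stood at 5.45, 2.405 and 4.58 FPKM in FP and 4.34, 2.52 and 2.98 FPKM in RR, with overlapping groups (0.24 ± 0.33). Rpa1, the large subunit of the single-strand binding complex, had 9.58, 8.38 and 7.67 FPKM in FP and 6.295, 4.13 and 6.205 FPKM in RR. Here too FP was higher with no overlap, but the 95% interval of its difference of 0.56 ± 0.26 reached from -0.04 to 1.16 (limma adjusted p = 0.537). Rpa2, its partner in the same complex, overlapped between groups (0.11 ± 0.30). Rpa3, the small subunit, was listed at 0 in RR 14 and stood at 2.099 to 6.91 FPKM elsewhere.

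Pcna, the sliding clamp and a usual mark of S phase, had 15.5, 3.46 and 10.8 FPKM in FP and 9.28, 6.555 and 5.35 FPKM in RR. FP 14 was the lowest of all libraries and FP 11 the highest, so the FP range enclosed the RR range. The difference was 0.27 ± 0.47 (95% interval -0.80 to 1.34; limma adjusted p = 0.917), and without FP 11 it was -0.13. The annotation also names the pseudogenes Pcna-ps1 and Pcna-ps2, between which and Pcna reads could be split. The 5 subunits of the clamp loader had differences between 0.13 (Rfc5) and 0.51 (Rfc4), and Rfc4 was listed at 0 in FP 14 and RR 14.

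Nucleotide supply held both the highest member and the only one with FP below RR in every library. Tyms, thymidylate synthase, which makes dTMP, stood at 22.3, 34.01 and 34.7 FPKM in FP and 37.1, 61.3 and 35.5 FPKM in RR. The groups were separate with FP lower, by a narrow gap between FP 16 and RR 16, and they were no longer separate under quantile normalization. Its mean was 30.3 ± 6.96 FPKM in FP and 44.6 ± 14.5 FPKM in RR (SD, n = 3), a ratio of 0.68. The log2 difference was -0.52 ± 0.32 (SE; 95% interval -1.24 to 0.20; limma adjusted p = 0.669). Tyms had 214 or more fragments in every library. It lies at chr5:30058202-30073617 on the minus strand, and the annotation names a pseudogene, Tyms-ps.

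Thymidine kinase Tk1 supplies dTMP by the salvage route, and its estimate had the other sign. It had 10.3, 8.47 and 13.6 FPKM in FP and 3.605, 11.75 and 4.855 FPKM in RR. FP was far higher for 11 and 16, and RR 14 exceeded FP 14, so the groups overlapped (0.73 ± 0.40; limma adjusted p = 0.624). Without RR 14 the difference was 1.16, with a limma adjusted p of 0.317. Its exons overlap those of Afmid on the other strand.

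Rrm1 and Rrm2 are the subunits of ribonucleotide reductase, and Rrm2 is the one that is made in S phase. Rrm2 had 8.625, 2.08 and 4.74 FPKM in FP and 6.38, 1.62 and 1.91 FPKM in RR. FP was higher within each number, while RR 11 exceeded FP 14 and FP 16 (0.53 ± 0.52). Rrm1 had 8.93, 4.465 and 4.86 FPKM in FP and 5.73, 2.11 and 3.73 FPKM in RR, again higher in FP within each number (0.56 ± 0.37). Dut, which clears dUTP, ranged from 2.07 FPKM in RR 14 to 10.4 FPKM in FP 11 (0.49 ± 0.42).

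Chromatin and histone supply had the highest median of the 8 roles, 0.64 on the log2 scale. Its summed level was 36.7, 38.3 and 38.7 FPKM in FP and 28.4, 14.97 and 34.6 FPKM in RR, with every FP sum above every RR sum. Chaf1b is a subunit of chromatin assembly factor 1, which places histones on new DNA, and it stood at 4.04, 4.82 and 3.92 FPKM in FP and 1.435, 0.9355 and 2.39 FPKM in RR. FP was higher without overlap, and the lowest FP value was 3.92 FPKM beside a highest RR value of 2.39 FPKM. The mean was 4.26 ± 0.49 FPKM in FP and 1.59 ± 0.74 FPKM in RR (SD, n = 3), a ratio of 2.68, the largest of the 49. The log2 difference was 1.06 ± 0.31 (SE; 95% interval 0.35 to 1.765; unadjusted p = 0.00833), and the limma adjusted p was 0.239. The RR values rested on about 7.03, 3.02 and 13.1 fragments. Chaf1b lies at chr16:93883901-93906115 on the plus strand.

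Chaf1a, the large subunit of the same complex, had 10.8, 14.2 and 15.1 FPKM in FP and 9.37, 6.53 and 14.8 FPKM in RR. Again FP was above RR within each number, but RR 16 exceeded FP 11 and FP 14 (0.41 ± 0.32). Uhrf1, which recognises hemimethylated DNA behind the fork and brings in the maintenance methyltransferase, had 6.16, 7.07 and 7.86 FPKM in FP and 3.12, 2.32 and 5.175 FPKM in RR. The groups were separate with FP higher, with means of 7.03 ± 0.85 and 3.54 ± 1.47 FPKM (SD, n = 3). The log2 difference was 0.87 ± 0.30 (SE; 95% interval 0.18 to 1.55; unadjusted p = 0.0192), and the limma adjusted p was 0.336. Its promoter at the downstream start held the E2F motif printed above. Slbp, which binds the stem-loop of histone mRNAs, had overlapping groups, with 5.19 FPKM in RR 14 and 11.8 to 15.7 FPKM in the other 5 libraries.

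The genes of entry into S phase were low. Cyclin E1, Ccne1, had 3.81, 1.305 and 3.82 FPKM in FP and 1.80, 1.825 and 1.97 FPKM in RR, with FP 14 lowest and the other FP libraries highest (0.395 ± 0.364). Cyclin E2, Ccne2, had 4.655, 0.811 and 1.19 FPKM in FP and 1.74, 0.567 and 0.892 FPKM in RR. FP was higher within each number and both number 11 libraries were high, and without FP 11 the difference of 0.49 was -0.01. E2f1, the activating E2F factor, had 3.09, 3.08 and 6.87 FPKM in FP and 2.21, 2.35 and 6.22 FPKM in RR. The libraries numbered 16 were high in both groups, and the step between numbers was larger than the difference of 0.25 ± 0.42 between FP and RR.

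Other cell cycle genes were read the same way for comparison, with the number of members and the median of each list. Over all tested genes the median was 0.017, and limma put 5.77% higher and 4.55% lower in FP at an unadjusted p under 0.05. A further 60 replication and S-phase genes, 58 of them tested, had a median difference of 0.27, with 0 past limma's threshold and 8 higher in FP and 0 lower at an unadjusted p under 0.05. Cdca7, a nucleosome remodelling cofactor, had their smallest p, at 7.26, 8.70 and 5.12 FPKM in FP and 2.27, 2.22 and 2.19 FPKM in RR. Its groups were well apart, with a difference of 1.29 ± 0.27 and a limma adjusted p of 0.0894. Ccna2, cyclin A2, had 13.9, 8.60 and 12.3 FPKM in FP and 7.26, 5.52 and 3.86 FPKM in RR (0.95 ± 0.30; limma adjusted p = 0.287). Mybl2, a transcription factor of the late cell cycle genes, had 4.08, 3.93 and 4.79 FPKM in FP and 2.004, 2.13 and 1.89 FPKM in RR (0.80 ± 0.26; limma adjusted p = 0.292). The groups of both genes were also separate.

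Of the 18 genes that restrain E2F or belong to the D cyclins and their kinases, 16 were tested, with a median difference of 0.33, and 1 passed. At an unadjusted p under 0.05 limma put 4 higher and 1 lower in FP. Cdk6, a kinase partner of the D cyclins that releases E2F, had 7.32, 10.1 and 10.3 FPKM in FP and 1.855, 2.12 and 1.25 FPKM in RR. It was higher in FP by 1.90 ± 0.275 (SE, n = 3 against 3; limma adjusted p = 0.0191). Leaving out any library but FP 11 ended this call, with adjusted p of 0.0528 without RR 11, 0.0549 without RR 14, 0.0726 without RR 16, 0.1003 without FP 14 and 0.119 without FP 16, while the difference stayed between 1.77 and 2.05 in all 6 fits. Cdkn1a, the cyclin-dependent kinase inhibitor p21, had 19.7, 14.5 and 28.45 FPKM in FP and 5.34, 4.685 and 8.11 FPKM in RR. Its difference was 1.615 ± 0.325 (limma adjusted p = 0.0717). Ccnd2, cyclin D2, had 8.115, 7.65 and 8.545 FPKM in FP and 18.1, 16.6 and 24.9 FPKM in RR, a difference of -1.18 ± 0.26 (limma adjusted p = 0.0997).

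The mitosis and cytokinesis list had 46 tested genes, a median of 0.66, 0 past the threshold, and 15 higher and 0 lower in FP at an unadjusted p under 0.05 in limma. Cenpa, the centromeric histone H3 variant, had 14.5, 9.23 and 18.6 FPKM in FP and 3.32, 4.48 and 3.26 FPKM in RR (1.65 ± 0.31; limma adjusted p = 0.0534). Ube2c, an enzyme of the anaphase-promoting complex, had 21.2, 9.42 and 16.1 FPKM in FP and 4.81, 2.195 and 3.45 FPKM in RR (1.86 ± 0.36; limma adjusted p = 0.0624). Ccnb2, cyclin B2, had 13.95, 11.3 and 9.51 FPKM in FP and 6.02, 3.19 and 3.996 FPKM in RR (1.24 ± 0.29; limma adjusted p = 0.132). The groups of these 3 genes were separate, with FP higher. FP was higher within each number for 33 of the 46 (71.7%) and lower for 0, where the replication set had 15 and 1 of 47 (31.9% and 2.13%). Over all tested genes these shares were 21.0% and 17.1%.

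Replication-dependent histone genes, 55 of 68 tested, had a median difference of 0.86, with 0 past the threshold and 21 higher and 1 lower in FP at an unadjusted p under 0.05 in limma. Hist1h3a had 29.2, 21.35 and 17.85 FPKM in FP and 10.51, 3.55 and 7.34 FPKM in RR (1.62 ± 0.38; limma adjusted p = 0.126). Hist1h2aa was listed at 0 in all FP libraries but had 4.20, 4.26 and 1.26 FPKM in RR, while Hist3h2ba had 5.31, 3.52 and 1.29 FPKM in FP and 0 in all RR libraries. The list was drawn by the start of the symbol alone and mixes several histone types, with the pseudogene Hist3h2bb-ps among the untested ones. Whether each gene on it, Hist1h2aa included, is replication-dependent was not checked. Genes of the same type can be near-identical copies, between which reads could be split. Whether this touched Hist1h2aa or Hist3h2ba was not tested. Without RR 14 the median was 0.57 for histones, 0.58 for the mitosis list and 0.25 for the further replication genes. Whether the lists differ from one another was not tested.

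**Figure D4:**
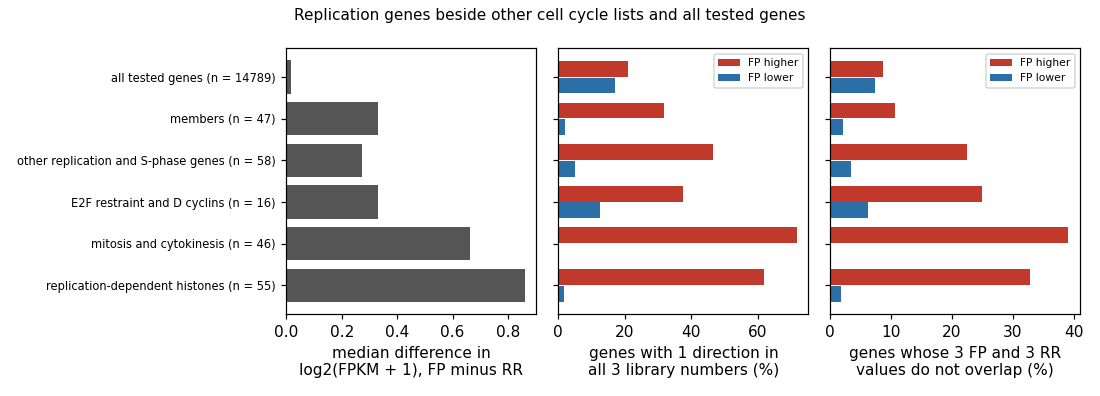
Median difference in log2(FPKM + 1), FP minus RR (left), the percent of genes with 1 direction in all 3 library numbers (middle) and the percent whose 3 FP and 3 RR values do not overlap (right), for all tested genes and 5 cell cycle lists. The replication set has a median of 0.33, below the 0.66 of the mitosis list and the 0.86 of the histones, and its share of separate groups is 10.6% beside 8.74% over all tested genes.

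Markers of other cells in or near the cut layers differed between libraries, by single library, by library number or, for some lists, between FP and RR. White blood cell and marrow markers (10 genes) summed to 54.8, 67.7 and 108 FPKM in FP and 421, 16.6 and 24.4 FPKM in RR, so RR 11 stood far above the rest, and S100a8, which marks neutrophils, was at 0 in RR 14 and RR 16. Erythroid markers (8 of 9 listed in the files) summed to 53.0 to 121 FPKM. Osteoclast markers (6 genes) summed to 116, 54.5 and 12.1 FPKM in FP 11, 14 and 16 and to 124, 46.2 and 18.2 FPKM in RR, highest for number 11 and lowest for 16 in both groups. Endothelial markers (7 genes) summed to 8.51 to 14.8 and 7.505 to 24.2 FPKM. Muscle markers (8 genes) summed to 118 to 191 FPKM in FP and to 164.5, 31.5 and 36.7 FPKM in RR, low in RR 14 and RR 16, and perichondrium and fibroblast markers (7 genes) to 44.2 to 96.3 and 49.1 to 104 FPKM. In these 6 lists 0 genes passed limma's threshold, and 1 was lower and 2 were higher in FP at an unadjusted p under 0.05. Of the 8 muscle estimates 8 were higher in FP (median 1.25), as were 4 of 4 for erythroid and 6 of 9 for marrow markers. Estimates were lower in FP for 5 of 6 endothelial, 4 of 5 osteoclast and 4 of 7 perichondrium and fibroblast genes. Over all 14789 tested genes 7634 estimates were higher in FP. Without RR 11, the library with the highest marrow sum, the replication set's median was 0.38 with 0 called, and the median of all tested genes was 0.017. The RR libraries left in that fit had lower marrow sums than every FP library, so it does not set the groups at a like marrow level.

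General chondrocyte markers, 7 of 9 listed in the files, had 7 of 7 estimates higher in FP and a median difference of 0.88, with 0 past the threshold and 3 higher in FP at an unadjusted p under 0.05 in limma. Among all 14789 tested genes 7634 estimates were higher in FP, and 5.77% were higher at that unadjusted p. Acan, the main proteoglycan of cartilage (0.94), Sox9, the transcription factor of chondrocyte identity (1.10), and Matn3, a matrix protein (1.35), had every FP library above every RR library, while Col2a1 overlapped (0.03). Most markers of chondrocyte stages separated the groups. Of 7 prehypertrophic and hypertrophic markers 5 were higher in FP past the threshold, and their sum was 1061 to 1317 FPKM in FP and 125 to 175 FPKM in RR. Among the 7 markers of the resting zone, 6 passed the threshold with FP lower, with a sum of 358 to 550.2 FPKM in FP and 890 to 1575 FPKM in RR. The remaining marker overlapped between groups and made up most of the FP sums. It had 491, 313 and 394 FPKM in FP 11, 14 and 16 and 633, 404 and 804 FPKM in RR 11, 14 and 16. Osteoblast markers (7 genes) summed to 327 to 960 FPKM in FP and 278 to 1672 FPKM in RR, and 1 of them, Sp7, was higher in FP past the threshold. The part of the general and stage markers, and of the other cells above, in the values of the replication genes was not tested.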

How the data were processed

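Gene expression was measured by RNA-seq of total RNA from laser-cut cartilage, in 3 FP and 3 RR libraries grouped by title code. The deposited values are FPKM per gene symbol, per the file headers. The submitters' processing notes name TopHat2 2.1.1, Bowtie2 2.2.8, SAMtools 0.1.18, Cuffdiff 2.2.1 and build mm10; they give no annotation, scaling or use of strand (not given in the sources used here). Total depth is unknown. The worth of 1 fragment was read from the steps of low FPKM in 3524 genes for which GENCODE M21 has just 1 basic transcript, 1500 to 3000 bp long, where 70.1% to 74.0% of low values were whole within 0.1 fragments. Fragment numbers of members use the median length of a gene's basic transcripts and are approximate.

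On log2(FPKM + 1), genes whose mean reached 1 FPKM were tested by limma (version 3.58.1, R 4.3.3; eBayes with an intensity trend, two-sided), with Benjamini-Hochberg adjustment over all of them. Log2 differences on this scale understate the change of low genes; ratios are of mean FPKM. The fit was tested on simulated data. Members, lists, tests and alternatives were chosen with earlier results of these data known. Named with values in each library are the 2 members with the smallest p in each of 8 roles, a panel of usual S-phase markers and, from each other list, the genes past the threshold and up to 3 with the smallest p; other names were chosen after their values were seen. The alternatives were other pseudocounts, filters and scalings, the library number as a block, and leaving libraries out. Gene coordinates are from GENCODE M21 on mm10. The counts and sums of markers include 1 gene that is not reported here by name.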

Additional observations from a re-analysis of the deposited data

How the results depend on the processing

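Under the 19 alternatives 0 members passed the threshold, and their median difference stayed between 0.080 (without RR 14) and 0.42 (without RR 16). Among all tested genes, 143 passed; 271 did with the replicate block, 412 with the library number as a random effect of the block, 83 without the intensity trend, 42 (without FP 16) to 85 (without FP 11) when 1 library was left out, and 42, 8 and 20 without both libraries numbered 11, 14 and 16. With equal sums after leaving out small RNAs and the 100 highest genes, the median of all genes was -0.12 and the members' 0.20, with 31 estimates higher and 16 lower, and the calls over all genes were 73 higher and 84 lower, against 82 and 61. Members with separate groups numbered 6. With quantile normalization 5 had FP above RR and 0 below, so Tyms was no longer separate, and 15.46% of all tested genes had separate groups. With the minimum at a mean of 5 FPKM, 3 of 23 members were above and 1 below, against 19.19%. The count was 7 to 19 when 1 library was left out (19 without FP 14 and 10 without RR 11), and 11, 22 and 13 without both libraries numbered 11, 14 and 16. Smaller groups overlap less often by construction: over all tested genes the share went from 16.03% to between 23.0% and 28.9% with 1 library left out and to 38.1%, 33.3% and 38.1% without both numbered 11, 14 and 16, where 44, 48 and 47 members were tested. The sign of a named difference changed for Cdc6 (-0.012 with equal sums; -0.074 without RR 16 to 0.29 with 1 library left out), Mcm6 (-0.26 to 0.12 with 1 library left out, 0.20 without both numbered 16), Cdc45 (-0.14 without RR 14 to 0.93, -0.25 without both numbered 14), Pcna (-0.13 without FP 11 to 0.82, -0.040 without both numbered 16), Ccne2 (-0.014 without FP 11 to 0.81) and E2f1 (-0.064 without FP 16 to 0.63); the cause was not tested. The other 27 of 33 named genes kept their sign. Calls in the other lists changed with the filter, the scaling and the libraries used, and when the library number entered the fit. With the minimum at a mean of 5 FPKM, 2 mitosis genes passed, and in the list of E2F restraint and D cyclins 2 passed higher and 1 lower in FP. Quantile normalization and equal sums each gave 1 higher and 1 lower in that list, and without RR 11 1 histone gene passed. With the replicate block 4 of 16 genes of E2F restraint and D cyclins passed (Cdk6, Cdkn1a and Ccnd1 higher in FP, Ccnd2 lower), 2 of 46 mitosis genes (Ube2c, adjusted p 0.0127, and Birc5, 0.0347) and 3 of 55 histone genes (Hist1h3a, Hist1h2af and Hist1h4b), and Matn3 (0.0290) among the chondrocyte markers. As a random effect, 4 mitosis genes passed (Cenpa and Ccnb2 too), 7 histone genes and, of the further replication genes, Cdca7 (0.0208). Deviations of same-numbered libraries correlated across genes at 0.319 (11), 0.185 (14) and 0.0890 (16), so the pairing by number is a hint from the data, not the design; each library correlated best with its own number. A library left out of 3 leaves 2, whose spread is then assumed to be like that of the other group. Depth limits the members most in RR 14, with 22 of 49 under 10 fragments.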
